A study of Mus musculus with 6 samples.

Results

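Perivascular interstitial macrophages are tissue macrophages that lie along blood vessels, and the 9 genes described here are commonly used to mark them: *Vsig4*, *Folr2*, *Lyve1*, *Timd4*, *Cd163*, *Stab1*, *Gas6*, *Pf4* and *Maf*. The genes were chosen by name, in part because *Vsig4* and *Folr2* were already known to be lower in KO lungs of this study, so values of that comparison are given for these 2 genes as a description without a test. All 9 were found among the 26100 rows of the count table, and all 9 passed the low-count filter that left 16633 rows for testing. The samples were whole lungs of 3 *Clec7a* knockout mice (KO) and 3 wild-type mice (WT), each taken at day 14 after bleomycin was injected into the trachea. Mice of both genotypes received bleomycin, a DNA-damaging drug that is followed by lung scarring, and lived under specific pathogen-free conditions. The sources used here give no strain, age or sex, nor how the knockout allele was made. *Clec7a* encodes dectin-1, a receptor of myeloid cells for fungal beta-glucan.

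Lung interstitial macrophages are the macrophages of the connective tissue, as opposed to those of the air spaces. One of their populations lies beside vessels and nerves, carries the hyaluronan receptor LYVE1 and is known for clearing debris and for dampening inflammation. Its marker genes serve uptake and signalling. *Vsig4* encodes a complement receptor that binds fragments of C3, *Cd163* the receptor for haptoglobin bound to haemoglobin, *Stab1* a scavenger receptor, and *Folr2* a folate receptor. *Timd4* encodes a receptor for phosphatidylserine on dying cells, *Gas6* a bridging ligand between such cells and the receptors AXL, MERTK and TYRO3, *Pf4* the chemokine CXCL4, and *Maf* a transcription factor of resident macrophages. Several of these genes are shared with other cells: *Lyve1* and *Stab1* with lymphatic and other endothelium, *Pf4* with platelets, *Maf* with T cells and *Gas6* with fibroblasts and endothelium.

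Start sites in the RefSeq table (GRCm38.p6) were matched for 7 of the 9 genes, all but *Lyve1* and *Maf*, and the 250 bases before the start are printed for the 4 with the largest genotype differences, since those genes were lower together. Capitals mark matches to GAGGAA, the core of the purine-rich box bound by the myeloid factor PU.1, and to TGCTGA, the core of the element bound by MAF factors, on either strand.

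*Vsig4* (GRCm38, chrX:96293439-96293688, minus strand): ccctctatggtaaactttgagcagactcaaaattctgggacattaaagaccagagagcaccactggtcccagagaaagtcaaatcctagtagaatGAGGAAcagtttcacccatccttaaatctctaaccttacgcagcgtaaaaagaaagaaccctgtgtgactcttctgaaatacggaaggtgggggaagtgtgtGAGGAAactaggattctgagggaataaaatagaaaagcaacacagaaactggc

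*Folr2* (GRCm38, chr7:101857191-101857440, minus strand): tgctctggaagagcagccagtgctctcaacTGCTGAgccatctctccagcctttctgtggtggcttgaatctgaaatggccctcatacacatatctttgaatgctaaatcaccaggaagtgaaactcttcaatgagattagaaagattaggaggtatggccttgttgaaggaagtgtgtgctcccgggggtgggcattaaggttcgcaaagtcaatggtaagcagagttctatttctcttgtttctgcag

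*Cd163* (GRCm38, chr6:124304401-124304650, plus strand): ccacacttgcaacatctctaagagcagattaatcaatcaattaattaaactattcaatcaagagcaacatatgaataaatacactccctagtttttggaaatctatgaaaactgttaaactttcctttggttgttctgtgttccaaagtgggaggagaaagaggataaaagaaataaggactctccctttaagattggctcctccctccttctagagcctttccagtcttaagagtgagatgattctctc

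*Pf4* (GRCm38, chr5:90772185-90772434, plus strand): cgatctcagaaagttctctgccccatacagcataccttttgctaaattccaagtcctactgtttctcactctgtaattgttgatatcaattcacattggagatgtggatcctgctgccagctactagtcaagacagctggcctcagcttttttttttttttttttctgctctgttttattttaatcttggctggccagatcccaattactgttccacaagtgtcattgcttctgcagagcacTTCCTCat

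The 250 bases before *Vsig4* held 2 matches to GAGGAA and those before *Pf4* held 1, within 8 bases of the start and on the opposite strand. The table has 2 start sites for *Folr2*; the sequence before the upstream one is printed, and each of the 2 held 1 match to TGCTGA. The *Cd163* sequence held neither motif. Of the genes not printed, *Timd4* held 2 matches to TGCTGA, *Stab1* held 1 match to each motif and *Gas6* held neither. Over 32851 such windows of the mouse genome, 23.3% held GAGGAA and 16.1% held TGCTGA. No match of one motif overlapped a match of the other. A match describes letters and does not show a bound site.

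The libraries held 31052936 to 34451956 counts, so counting error matters mainly for *Timd4* and for *Vsig4* in KO lungs. *Clec7a* was at 3.60, 6.85 and 2.84 CPM (counts scaled to the effective library size) in KO libraries and at 60.6, 84.0 and 196.5 CPM in WT libraries. The KO and WT libraries numbered 1 were the least like the rest: Spearman correlations over all tested genes were at most 0.947 for pairs with a replicate 1 library and at least 0.959 for pairs without one. Mitochondrial transcripts took 7.34% of the counts in KO replicate 1 and 2.69% to 3.87% in the other libraries. The labels describe lungs from separate mice and name no batch. In whole lung, fewer cells of a type and less RNA per cell cannot be told apart.

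All 9 genes had lower estimates in KO lungs than in WT lungs, and for 6 of them (*Vsig4*, *Cd163*, *Pf4*, *Folr2*, *Lyve1* and *Maf*) every KO library lay below every WT library. Leaving aside *Vsig4* and *Folr2*, this held for 4 of 7 genes, while 11.3% of all tested genes were lower in KO without overlap. The median log2 fold change of the 9 genes, always given as KO minus WT, was -0.92, that of the 7 without *Vsig4* and *Folr2* was -0.85, and that of all tested genes was -0.01. By edgeR's quasi-likelihood test with Benjamini-Hochberg adjustment over all 16633 genes, 0 of the 7 were called at 0.05, and so were 0 of all genes (0%). At an unadjusted p under 0.05 edgeR had 4 of the 7, all lower, against 5.89% of all genes lower at that level and 1968 genes in either direction. DESeq2 called 2 of the 7, *Cd163* and *Pf4*, and called 3.63% of all genes in either direction and 1.73% lower, whereas limma-voom called 0 genes (0%).

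**Figure D1:**
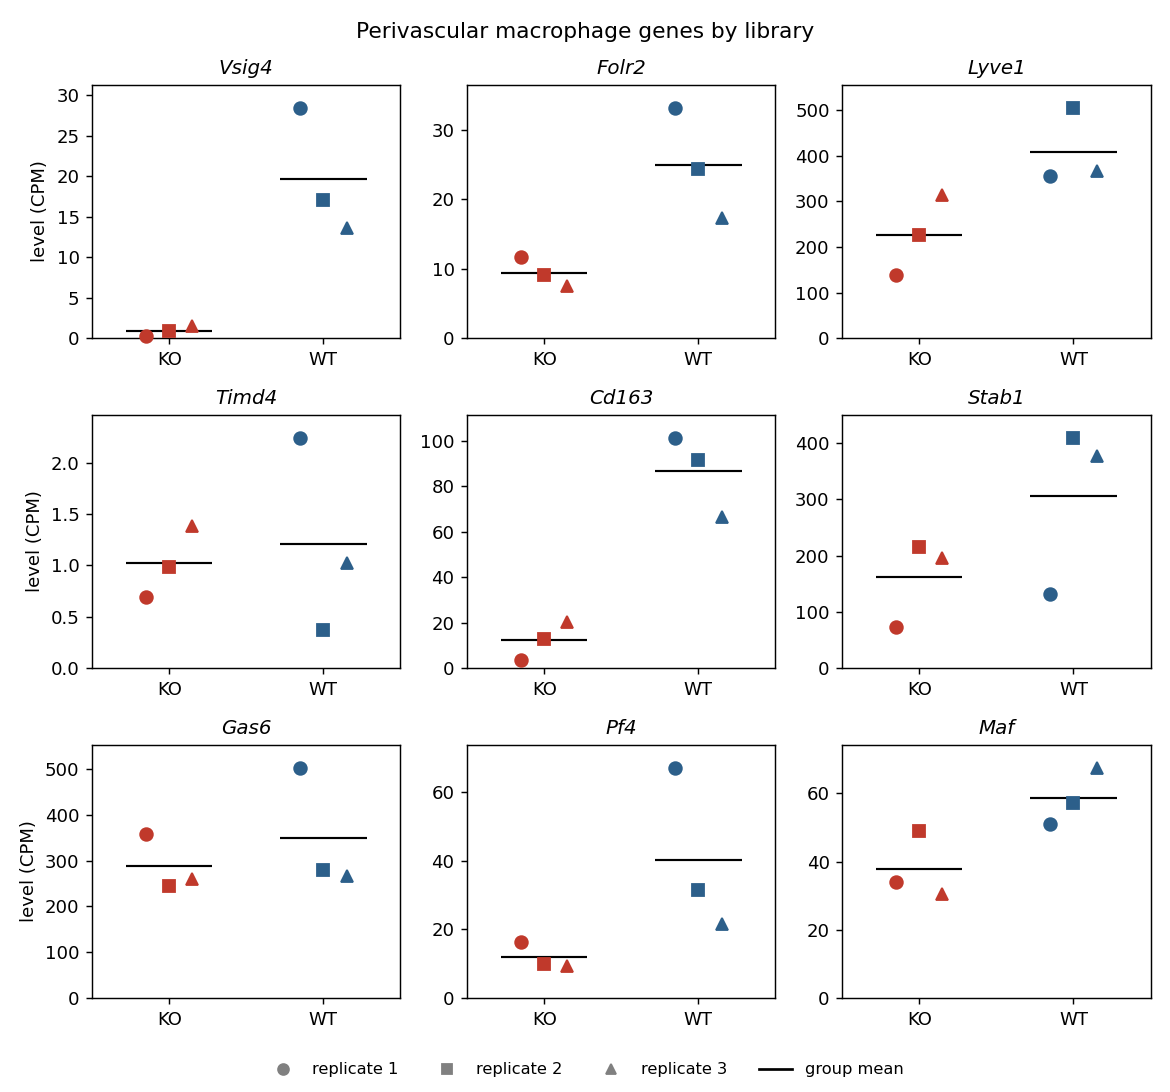
Level in CPM (y axis, starting at 0) of each of the 9 genes in the 3 KO and 3 WT libraries; symbols stand for replicate numbers and lines for group means. *Vsig4* lay between 0.284 and 1.51 CPM in KO libraries and between 13.5 and 28.4 CPM in WT libraries, and *Timd4*, *Stab1* and *Gas6* overlapped between the genotypes.

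Among the receptors for complement and haemoglobin, *Vsig4* (ENSMUSG00000044206, GRCm38 chromosome X, 96247203 to 96293438, minus strand) was at 0.284, 0.833 and 1.51 CPM in KO libraries, against 28.4, 17.1 and 13.5 CPM in WT libraries. These rest on 9, 28 and 49 counts in KO libraries and on 925, 556 and 464 counts in WT libraries. The highest KO library thus lay about an order of magnitude under the lowest WT library. Means were 0.876 ± 0.614 CPM in KO and 19.7 ± 7.8 CPM in WT (SD, n = 3 each), and the log2 fold change was -4.48 ± 0.65 (SE). Of the 9 genes, *Vsig4* had the largest difference, with KO lungs at 4.45% of the WT mean.

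*Cd163* (ENSMUSG00000008845, chromosome 6, 124304656 to 124330527, plus strand), the haemoglobin scavenger receptor, was at 3.51, 12.7 and 20.2 CPM in KO libraries and at 101.3, 91.7 and 66.6 CPM in WT libraries. The groups did not overlap, and KO replicate 1 was the lowest of all. The log2 fold change was -2.83 ± 0.61, with an edgeR adjusted p of 0.234 and a DESeq2 adjusted p of 1.57e-04. *Cd163* lies on the chromosome of *Clec7a*, 5.13 Mb from it. The order of the KO libraries was the same for *Vsig4* and *Cd163*, with replicate 1 lowest and replicate 3 highest, and so was that of the WT libraries, with replicate 1 highest and replicate 3 lowest.

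For folate uptake, *Folr2* (ENSMUSG00000032725, chromosome 7, 101839988 to 101857194, minus strand) was at 11.7, 9.08 and 7.46 CPM in KO libraries and at 33.2, 24.3 and 17.3 CPM in WT libraries. No KO library reached the WT range. Means were 9.43 ± 2.17 CPM in KO and 24.9 ± 7.9 CPM in WT (SD, n = 3 each). The WT mean was 2.65 times the KO mean, and the log2 fold change was -1.40 ± 0.31. *Folr1*, a related folate receptor of epithelia, was at 0.154 to 1.52 CPM in KO libraries and at 0.707 to 2.76 CPM in WT libraries, with overlap. How the authors' counting divided reads shared between related genes is not given in the sources used here.

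For the scavenger and hyaluronan receptors the differences were smaller. *Lyve1* (ENSMUSG00000030787, chromosome 7, 110850607 to 110863239, minus strand) was at 138, 227 and 314 CPM in KO libraries and at 356, 505 and 366 CPM in WT libraries. The groups did not overlap, with KO replicate 3 and WT replicate 1 the closest pair. Its log2 fold change was -0.85 ± 0.34 (edgeR adjusted p 0.408). *Stab1* (ENSMUSG00000042286, chromosome 14, 31139013 to 31168641, minus strand) was at 73.6, 215.6 and 196.0 CPM in KO libraries and at 131, 409 and 377 CPM in WT libraries. Here the groups overlapped, because replicate 1 was the lowest library of each genotype. Its log2 fold change was -0.92 ± 0.55 (edgeR adjusted p 0.566), and -0.57 without KO replicate 1. With both replicate 1 libraries left out it was -0.93 ± 0.11 (edgeR adjusted p 0.0572).

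The blood endothelium list (10 genes such as *Pecam1* and *Cdh5*) was also lowest in replicate 1 of each genotype, with centred log2 values of -0.36 in KO and -1.15 in WT, where 0 is the average over all libraries. Its summed level was 2078 to 4215 CPM in KO libraries and 1277 to 4146 CPM in WT libraries. Of its genes, 2 had lower and 8 had higher estimates in KO, with a median log2 fold change of 0.14, and all overlapped. The lymphatic endothelium list of 9 genes summed to 413 to 527 CPM in KO libraries and 460 to 577 CPM in WT libraries. It had 7 members lower and 2 higher. Without overlap there were 0, beside 11.3% of all genes lower and 9.81% higher. *Prox1*, the transcription factor that defines lymphatic endothelium, was at 2.81, 11.1 and 5.46 CPM in KO libraries and at 5.56, 8.76 and 9.51 CPM in WT libraries. The part of endothelium in the *Lyve1* and *Stab1* values was not tested.

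Genes for the clearance of dying cells did not separate the genotypes. *Timd4* (ENSMUSG00000055546, chromosome 11, 46810800 to 46844332, plus strand) was at 0.695, 0.982 and 1.39 CPM in KO libraries and at 2.24, 0.369 and 1.02 CPM in WT libraries, from 12 to 73 counts per library. The WT range enclosed all KO values. Its log2 fold change was -0.24 ± 0.68 (edgeR adjusted p 0.925) and turned to 0.55 without WT replicate 1. *Gas6* (ENSMUSG00000031451, chromosome 8, 13465374 to 13494490, minus strand) was at 358, 244 and 260 CPM in KO libraries and at 502, 279 and 266 CPM in WT libraries. Replicate 1 was highest in both genotypes, and the other libraries lay close together. Its log2 fold change was -0.28 ± 0.32 (edgeR adjusted p 0.785) and turned to 0.08 without WT replicate 1.

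*Pf4* (ENSMUSG00000029373, chromosome 5, 90772435 to 90773383, plus strand), the chemokine gene, was at 16.3, 10.03 and 9.25 CPM in KO libraries and at 67.1, 31.5 and 21.7 CPM in WT libraries. The groups did not overlap, and WT replicate 1 stood well above the other WT libraries. The log2 fold change was -1.76 ± 0.47 (edgeR adjusted p 0.269, DESeq2 adjusted p 0.0166), and -1.17 without WT replicate 1. The platelet list of 9 tested genes had 6 members lower and 3 higher. Without overlap 2 were lower and 2 higher, beside 11.3% and 9.81% of all genes. The list summed to 61.2 to 62.4 CPM in KO libraries and 77.1 to 106.2 CPM in WT libraries, and *Itgb3* was the largest part of each sum. The list's mean centred log2 levels overlapped, at -0.06, -0.01 and -0.11 in KO libraries and at -0.09, 0.21 and 0.07 in WT libraries. *Itgb3*, the integrin beta chain of platelets that other cells also make, was at 36.0, 37.2 and 39.6 CPM in KO libraries and at 82.8, 78.1 and 53.6 CPM in WT libraries (log2 fold change -0.93 ± 0.21, edgeR adjusted p 0.234, DESeq2 adjusted p 0.0222). *Treml1*, a receptor gene of platelet granules, was at 0.853, 0.625 and 0.863 CPM in KO libraries and at 1.78, 1.72 and 1.96 CPM in WT libraries. Both were lower in every KO library, as *Pf4* was. *Itga2b*, the platelet integrin alpha chain, was at 6.29, 9.88 and 11.8 CPM in KO libraries and at 10.96, 15.7 and 11.7 CPM in WT libraries. *Ppbp*, a platelet chemokine gene of the same family as *Pf4*, was at 13.4, 7.29 and 4.66 CPM in KO libraries and at 3.81, 4.61 and 4.20 CPM in WT libraries, higher in every KO library. The part of platelets in the *Pf4* values was not tested.

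*Maf* (ENSMUSG00000055435, chromosome 8, 115682942 to 115707794, minus strand) was at 33.98, 48.9 and 30.4 CPM in KO libraries and at 51.1, 57.2 and 67.5 CPM in WT libraries. The groups did not overlap, but KO replicate 2 and WT replicate 1 were close. By FPKM they overlapped, with the highest KO value at 9.65 and WT replicate 1 at 9.41. Its log2 fold change was -0.63 ± 0.24 (edgeR adjusted p 0.380). The T cell list, whose cells can also express *Maf*, ran the other way: all 8 tested members were higher in every KO library, and the list summed to 42.2 to 65.8 CPM in KO libraries and 11.5 to 26.2 CPM in WT libraries. Genes without overlap and higher in KO made up 9.81% of all genes.

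GENCODE M21 places genes on the opposite strand that overlap *Folr2*, *Stab1*, *Gas6* and *Maf*. Whether counting used strand is not given in the sources used here. Reads from the shared stretches therefore cannot be assigned to 1 gene with certainty.

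The 9 genes were expressed at very different levels. By FPKM, which divides by gene length and so allows levels of different genes to be compared, the order of mean levels in KO lungs was *Gas6* (110.3 ± 21.3), *Lyve1* (77.1 ± 30.7), *Stab1* (20.1 ± 9.7), *Pf4* (19.7 ± 6.0), *Folr2* (8.92 ± 1.94), *Maf* (7.27 ± 2.06), *Cd163* (2.71 ± 1.88), *Vsig4* (0.594 ± 0.423) and *Timd4* (0.456 ± 0.158; SD, n = 3). The ranges of neighbours in this order overlapped except between *Lyve1* and *Stab1*, *Pf4* and *Folr2*, and *Maf* and *Cd163*. In WT lungs the order was *Lyve1* (133.4 ± 30.1), *Gas6* (127.5 ± 42.6), *Pf4* (63.2 ± 34.9), *Stab1* (36.9 ± 19.1), *Folr2* (22.7 ± 6.0), *Cd163* (18.3 ± 3.2), *Vsig4* (12.8 ± 4.5), *Maf* (11.4 ± 1.9) and *Timd4* (0.506 ± 0.384; SD, n = 3). Of the WT neighbours only *Maf* and *Timd4* did not overlap. *Vsig4* had a mean FPKM near that of *Timd4* in KO lungs and near that of *Maf* in WT lungs.

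Within a genotype the genes did not move as a block. Among KO libraries, replicate 1 was the lowest for 5 genes (*Vsig4*, *Lyve1*, *Timd4*, *Cd163* and *Stab1*) and the highest for 3 (*Folr2*, *Gas6* and *Pf4*). Among WT libraries, replicate 1 was the highest for 6 genes (*Vsig4*, *Folr2*, *Timd4*, *Cd163*, *Gas6* and *Pf4*) and the lowest for the other 3. *Folr2* and *Pf4* kept the same order of replicates in both genotypes, with replicate 1 highest and replicate 3 lowest. *Stab1* also kept its order, with replicate 2 highest and replicate 1 lowest.

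The genotype difference was then set beside macrophage genes at large. The pan-macrophage list of 13 genes, which includes *Csf1r* (the receptor for the macrophage growth factor CSF1), *Adgre1*, *Cd68* and the C1q genes, had 11 members with lower and 2 with higher estimates in KO and a median log2 fold change of -0.45. *Csf1r* was at 161, 307 and 175 CPM in KO libraries and at 141, 235 and 291 CPM in WT libraries, with overlap and a log2 fold change of -0.05 ± 0.37 (edgeR adjusted p 0.974). In each library the mean log2 CPM of that list was subtracted from the log2 CPM of each perivascular gene. The mean of the 9 genes on this scale was -3.61, -3.27 and -2.38 in KO libraries and -1.46, -2.19 and -2.51 in WT libraries. KO replicate 3 lay above WT replicate 3, so the groups overlapped, with a KO minus WT difference of -1.04. This mean includes *Vsig4* and *Folr2*, and without them the mean of the other 7 genes was -2.81, -2.46 and -1.61 in KO libraries and -1.16, -1.83 and -2.06 in WT libraries, a difference of -0.61 with overlap. Without both replicate 1 libraries the difference over all 9 was -0.48. *Lyz2*, the lysozyme gene and the most abundant of the 13, was at 18786 CPM in KO replicate 1 and at 6331 and 4023 CPM in the other KO libraries, against 3476, 3714 and 4280 CPM in WT libraries.

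On the same scale only *Vsig4* and *Cd163* kept every KO library below every WT library, 2 of the 9 genes. Leaving aside *Vsig4* and *Folr2*, *Cd163* alone of the other 7 genes did so. Of all tested genes 1.88% did so, and 19.9% lay higher in every KO library on this scale, as did 0 of the 9. *Vsig4* was at -8.97, -7.79 and -6.23 in KO libraries and at -2.62, -3.71 and -4.26 in WT libraries. *Cd163* was at -5.60, -3.96 and -2.55 in KO libraries and at -0.79, -1.29 and -1.97 in WT libraries. *Folr2* overlapped by a small margin, since KO replicate 1 stood at -3.87 and WT replicate 3 at -3.91. *Maf*, which did not overlap per lung, averaged -2.11 ± 0.21 in KO and -1.90 ± 0.11 in WT relative to the macrophage list (SD, n = 3 each), with overlap.

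**Figure D2:**
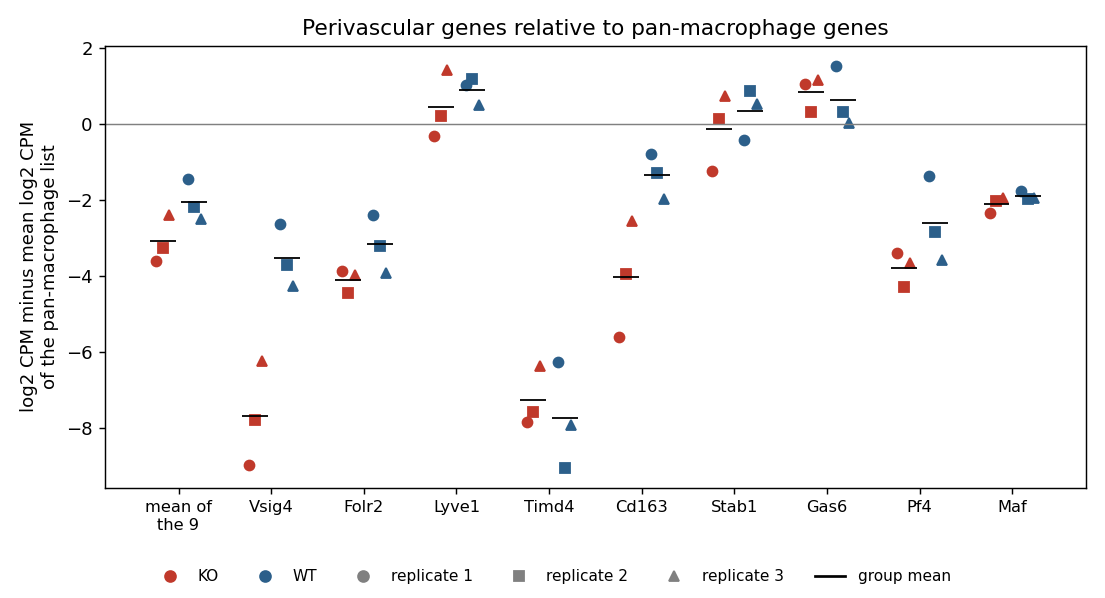
Log2 CPM of each gene minus the mean log2 CPM of the 13 pan-macrophage genes (y axis) in each KO and WT library; symbols stand for replicate numbers and lines for group means. *Vsig4* and *Cd163* separate the genotypes, with KO means of -7.66 and -4.03 against WT means of -3.53 and -1.35, and the other genes overlap.

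A wider list of 26 genes reported in perivascular, LYVE1-positive or CD163-positive macrophages was examined beside the 9. Like the other lists, it was written with earlier results of these data known, so its counts are a description. Of the 26 genes, 18 had lower and 8 had higher estimates in KO, with a median log2 fold change of -0.47. Every KO library lay below every WT library for 9 of them and above for 0, beside 11.3% and 9.81% of all genes. edgeR called 0 of the 26 at an adjusted p under 0.05. It had 9 lower at an unadjusted p under 0.05, against 5.89% of all genes. DESeq2 called 4, all lower, against 1.73% of all genes lower. The list's libraries did not overlap as means: centred log2 levels were -0.39, -0.28 and -0.40 in KO libraries and 0.49, 0.29 and 0.30 in WT libraries.

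*F13a1*, the coagulation factor XIII A chain of macrophages, was at 83.7, 59.3 and 57.1 CPM in KO libraries and at 471, 441 and 285 CPM in WT libraries. *Fcna*, a ficolin of the lectin complement pathway, was at 1.90, 4.58 and 6.20 CPM in KO libraries and at 55.9, 23.1 and 26.0 CPM in WT libraries. Both lay far below the WT range in every KO library, with log2 fold changes of -2.58 ± 0.29 and -3.05 ± 0.56 (edgeR adjusted p 0.203 for each, DESeq2 adjusted p 6.83e-12 and 5.91e-06). *Hmox1*, the enzyme that degrades haem taken up through *Cd163*, was named after its values were seen. It was at 126, 69.1 and 65.1 CPM in KO libraries and at 861, 328 and 349 CPM in WT libraries (log2 fold change -2.56 ± 0.50, edgeR adjusted p 0.216, DESeq2 adjusted p 4.93e-05).

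Among other genes of the wider list, *Ccl24* was named after its values were seen. It was at 0.253, 2.05 and 0.432 CPM in KO libraries and at 4.88, 4.55 and 5.90 CPM in WT libraries. The groups did not overlap (log2 fold change -2.48 ± 0.78, edgeR adjusted p 0.312, DESeq2 adjusted p 0.0237). The next genes gave smaller differences or rested on 1 library. *Selenop*, a selenium carrier made by resident macrophages, was at 985, 742 and 714 CPM in KO libraries and at 1277, 893 and 936 CPM in WT libraries, with overlap (log2 fold change -0.35 ± 0.27, edgeR adjusted p 0.658). The mannose receptor gene *Mrc1*, also chosen after its values were seen, was at 246, 267 and 154 CPM in KO libraries and at 270, 381 and 284 CPM in WT libraries. It did not overlap, by a small margin, with a log2 fold change of -0.49 ± 0.28 (edgeR adjusted p 0.545). *Ccl6*, a myeloid chemokine gene, had a log2 fold change of 0.74 ± 0.67 (edgeR adjusted p 0.713) that rested on 1628 CPM in KO replicate 1 and turned to -0.39 without it. *Hmox1*, *Ccl24* and *Mrc1*, named after their values were seen, were all lower. The list's other genes with higher estimates in KO all overlapped between the genotypes. Their log2 fold changes were 0.54 for *Cbr2*, 0.38 for *Pltp*, 0.31 for *Wwp1* and 0.29 for *Ednrb*. Those of *Cd209g*, *Siglec1* and *Igf1* were 0.26, 0.09 and 0.06.

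**Figure D3:**
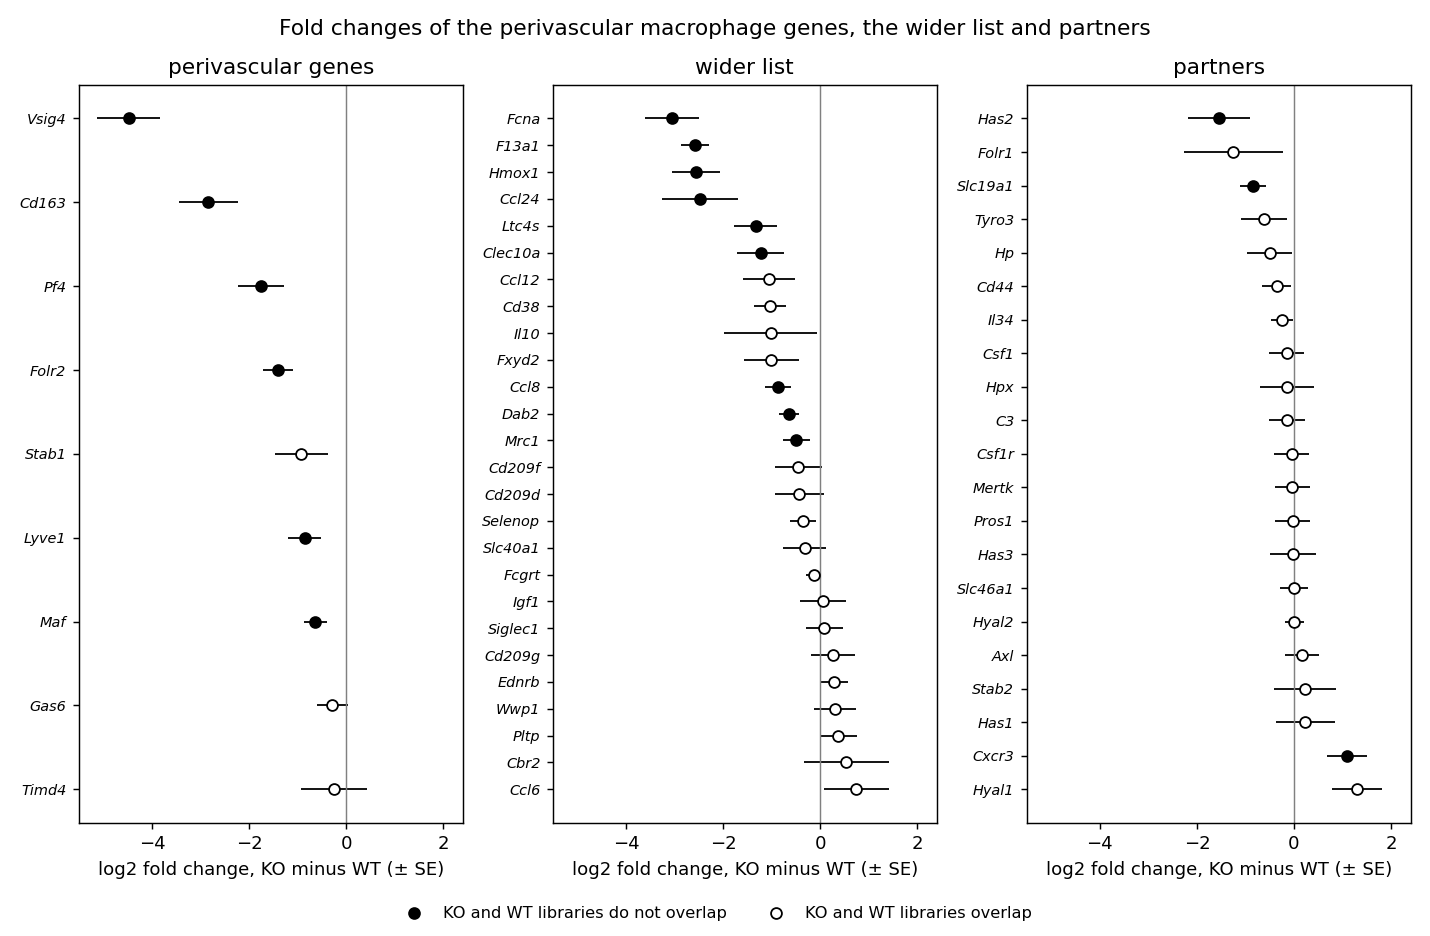
Log2 fold change, KO minus WT, with its SE (x axis) for the 9 perivascular genes, the wider list of 26 and partner genes. Filled points mark genes whose KO and WT libraries do not overlap. The median is -0.92 for the 9 genes, -0.47 for the wider list and -0.10 over all 22 partners.

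Ligands, receptors and handling genes that act with the 9 were examined as a list of 22 partners. Of these, 16 had lower and 6 had higher estimates in KO, with a median log2 fold change of -0.10. Groups did not overlap for 3 lower genes and 1 higher gene, beside 11.3% and 9.81% of all genes. edgeR called 0 at an adjusted p under 0.05. Its unadjusted p was under 0.05 for 3 lower and 2 higher, beside 5.89% and 5.95% of all genes. DESeq2 called 1, lower in KO, against 1.73% of all genes lower. *C3*, the source of the *Vsig4* ligands, was at 1053, 848 and 941 CPM in KO libraries and at 1612, 695 and 829 CPM in WT libraries. *Hp*, which encodes the haptoglobin bound by CD163, was at 336, 340 and 483 CPM in KO libraries and at 954, 386 and 304 CPM in WT libraries. Both overlapped, and their log2 fold changes of -0.14 ± 0.37 and -0.50 ± 0.46 (edgeR adjusted p 0.918 and 0.722) turned to 0.31 and 0.16 without WT replicate 1. The folate carrier gene *Slc19a1* was at 4.58, 6.25 and 6.75 CPM in KO libraries and at 8.72, 12.1 and 10.7 CPM in WT libraries, without overlap (log2 fold change -0.84 ± 0.27, edgeR adjusted p 0.315). The receptors of *Gas6* overlapped between the genotypes, with log2 fold changes of 0.16 ± 0.34 for *Axl*, -0.03 ± 0.35 for *Mertk* and -0.62 ± 0.47 for *Tyro3*. *Has2*, which makes the hyaluronan bound by LYVE1, did not overlap (log2 fold change -1.55 ± 0.64, edgeR adjusted p 0.419). It was at 2.62, 16.4 and 8.76 CPM in KO libraries and at 16.9, 29.3 and 35.0 CPM in WT libraries. *Has1* and *Has3* of the same list overlapped, with log2 fold changes of 0.24 ± 0.61 and -0.02 ± 0.47. The 1 partner higher without overlap was *Cxcr3* (log2 fold change 1.09 ± 0.41, edgeR adjusted p 0.380). *Hyal1* also had a higher estimate but overlapped (log2 fold change 1.298 ± 0.521, edgeR adjusted p 0.413).

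The genes whose level over the 6 libraries ran nearest to *Vsig4*, by the root mean square difference of centred log2 CPM among 13614 genes, were *Hmga2* (0.62), *Acsl6* (0.71), *Cd163* (0.76), *Fcna* (0.79) and *Cd209b* (0.81). *Cd163* is one of the 9 genes, and *Fcna* is on the wider list. All were picked for likeness to *Vsig4*, itself chosen in part as lower in KO, so their genotype differences are a description. *Cd209b*, a C-type lectin gene known from macrophages of the splenic marginal zone in mice, averaged 0.355 ± 0.355 CPM in KO and 2.68 ± 0.61 CPM in WT (SD, n = 3 each). *Acsl6*, an acyl-CoA synthetase gene, averaged 0.725 ± 0.592 CPM in KO and 11.2 ± 3.2 CPM in WT (SD, n = 3 each).

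The 6 nearest to *Folr2* lay much closer to it. They were *Bnip3* (0.08), a mitophagy gene induced by hypoxia, the glycolytic enzyme genes *Eno1* (0.13) and *Pkm* (0.15), *Npl* (0.15), which encodes an enzyme of sialic acid breakdown, the galectin gene *Lgals1* (0.16) and *Cgref1* (0.17). *Bnip3* averaged 46.6 ± 10.03 CPM in KO and 115 ± 40 CPM in WT, and *Eno1* averaged 269 ± 65 CPM in KO and 630.0 ± 251.1 CPM in WT (SD, n = 3 each). These genes were selected for likeness to *Folr2*, so their genotype difference is a description.

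Markers of other macrophages and of monocytes gave mixed values. The pleural macrophage list, of large macrophages from the serous cavities that can also carry *Timd4* and *Vsig4*, had 8 lower and 1 higher of 9 genes, and its library means did not overlap. Its summed level was 159 to 191 CPM in KO libraries and 201 to 215 CPM in WT libraries. Without overlap 3 genes were lower and 1 higher, beside 11.3% and 9.81% of all genes. *Gata6*, the factor that defines these macrophages and is also made by other lung cells, was at 45.2, 23.0 and 31.4 CPM in KO libraries and at 42.0, 32.0 and 33.2 CPM in WT libraries, with overlap. *Serpinb2*, an inhibitor of plasminogen activation, was at 1.36, 1.76 and 2.59 CPM in KO libraries and at 21.2, 6.76 and 5.63 CPM in WT libraries (log2 fold change -2.55 ± 0.61, edgeR adjusted p 0.240). No gene of this list was at 0 counts in any library, and its part in the *Vsig4* and *Timd4* values was not tested.

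The alveolar macrophage list had 4 lower and 8 higher of 12 tested genes, with a median log2 fold change of 0.90. In it 4 genes were higher without overlap, beside 9.81% of all genes. It summed to 789 to 2398 CPM in KO libraries and 1380 to 2301 CPM in WT libraries, and its mean was highest in KO replicate 1, with a centred log2 value of 1.32. The scar macrophage list had 5 lower and 5 higher of 10, summing to 2253 to 6023 CPM in KO libraries and 7109 to 9382 CPM in WT libraries. The largest part of each sum was *Spp1*, at 3579, 2166 and 1108 CPM in KO libraries and 4514, 7057 and 6209 CPM in WT libraries. Without overlap 2 genes of this list were lower and 1 higher, beside 11.3% and 9.81% of all genes. Its mean centred log2 levels overlapped, at 0.37, -0.21 and -0.88 in KO libraries and 0.11, 0.20 and 0.42 in WT libraries. Monocyte genes were lower for 3 and higher for 7 of 10, summing to 903 to 2707 CPM in KO libraries and 987 to 3039 CPM in WT libraries. Genes of fibroblasts and pericytes were lower for 6 and higher for 1 of 7, summing to 1219 to 8859 CPM in KO libraries and 3326 to 14347 CPM in WT libraries. edgeR called 0 genes of these lists at an adjusted p under 0.05. DESeq2 called 4 alveolar macrophage genes, all higher (*Car4*, *Ear2*, *Krt79* and *Plet1*), 2 pleural genes, both lower (*Prg4* and *Serpinb2*), 5 T cell genes, all higher, and 2 scar macrophage genes in opposite directions. Of all genes DESeq2 called 1.73% lower and 1.91% higher. *Arg1*, the arginase of scar macrophages, was at 66.6, 22.9 and 15.5 CPM in KO libraries and at 818, 681 and 443 CPM in WT libraries, a log2 fold change of -4.21 ± 0.64 (edgeR adjusted p 0.203, DESeq2 adjusted p 2.69e-10). The elastase gene *Mmp12* was at 146, 465 and 93.3 CPM in KO libraries and at 11.7, 26.9 and 77.3 CPM in WT libraries. By mean level, only the 9 perivascular genes, the wider list, the pleural list and, in the other direction, the T cell list kept the KO and WT libraries apart among the 12 lists plotted by library. The choice of *Vsig4* and *Folr2* bears on the separation of the 9 genes. The other 7 had mean centred log2 levels of -0.93, -0.38 and -0.28 in KO libraries and 0.74, 0.43 and 0.42 in WT libraries, without overlap.

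**Figure D4:**
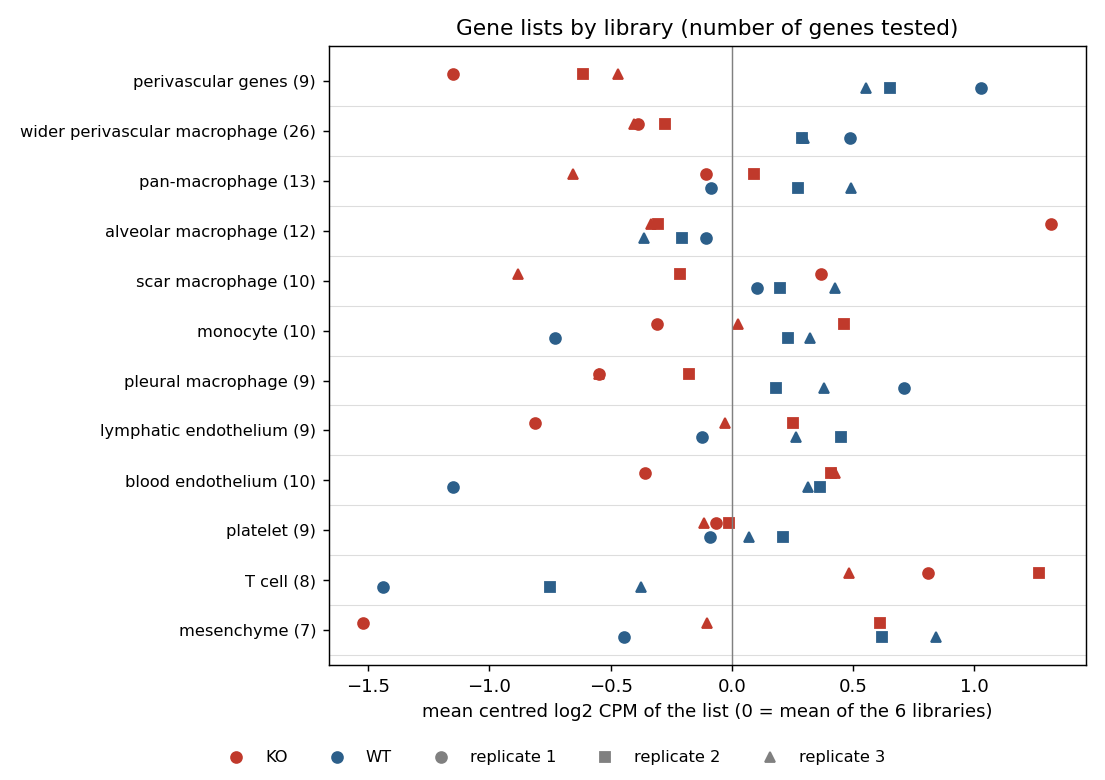
Mean centred log2 CPM of each gene list (x axis, 0 is the mean of the 6 libraries) in each KO and WT library, with the number of genes tested in brackets; symbols stand for replicate numbers. The 9 perivascular genes lie between -1.15 and -0.47 in KO libraries and between 0.55 and 1.03 in WT libraries, while pan-macrophage genes overlap between the genotypes.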

How the data were processed

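Whole-lung RNA was extracted with TRIzol and sequenced after NEBNext Ultra library preparation, per the labels' protocols. HISAT2 2.0.4, StringTie 1.3.4d and the build GRCm38 are named without roles in the submitters' processing notes. The authors deposited counts per gene as whole numbers without normalization and, in another table, FPKM values for the same genes. In the FPKM table the KO column names have an ending absent from the labels, so these columns were used without replicate numbers.

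Counts were tested with edgeR 4.0.16 in R 4.3.3 (filterByExpr, TMM, robust quasi-likelihood fit, genotype only, 2-sided, Benjamini-Hochberg over all genes). SE was taken as the size of the log2 fold change divided by the root of its F statistic. Log2 CPM used a prior count of 2. Tests were checked on simulated counts. Each p-value reflects only the variation among these 6 lungs.

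Alternatives were DESeq2 1.42.0, limma-voom (limma 3.58.1), other scalings, no filter, a replicate block, left-out libraries, and limma on log2(FPKM + 1) or log2(FPKM + 0.1) with at least 0.5 FPKM in at least 3 libraries or no filter. The 9 genes and all lists were chosen with earlier results of these data known. The rule for other named genes took, from each list, the 2 of highest mean CPM and the 2 of smallest p where none passed edgeR, and the 6 nearest to *Vsig4* and to *Folr2* of at least 1 CPM; not all were printed, and some are not reported here. *Clec7a*, *Csf1r*, *Prox1*, *Gata6* and *Folr1* and other genes of the lists were added for their roles or, where stated, after their values were seen. Coordinates are from GENCODE M21 (GRCm38) and sequences from RefSeq (GRCm38.p6).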

Additional observations from a re-analysis of the deposited data

How the results depend on the processing

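The number of genes called was 0 with edgeR, 678 with DESeq2 (322 lower, 356 higher), 46 with both replicate 1 libraries left out, and 0 to 3 with each library left out in turn. At those settings, DESeq2 called 4 genes of the wider list, 1 partner and 2 of the 7 perivascular genes tested, and the fit without both replicate 1 libraries called 3 of the wider list. The median log2 fold change of the 9 genes ranged from -1.18 to -0.60 as each library was left out, with the value of -0.60 without KO replicate 1. Without both replicate 1 libraries 8 of the 9 genes had no overlap, when 32.4% of all genes were lower without overlap. With total counts only, and by FPKM, 5 of the 9 had none (9.69% and 9.15% of all genes). Of the genes without overlap in the main fit, *Maf* overlapped at both settings. The difference relative to macrophage genes ranged from -1.39 to -0.48 over the alternatives. *Vsig4* ranged from -5.12 to -3.10, *Folr2* from -1.61 to -1.14, *Cd163* from -3.41 to -2.26 and *Maf* from -0.86 to -0.50.

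Directions turned for genes with small differences. *Timd4* was at 0.05 with limma-voom and with the replicate block (0.0496 and 0.0511) and at 0.77 without both replicate 1 libraries, and ranged from -0.67 to 0.55 as each library was left out. Leaving out each library gave -0.47 to 0.0755 for *Gas6* (that high value without WT replicate 1), -0.39 to 1.15 for *Ccl6*, -0.37 to 0.31 for *C3*, -0.79 to 0.16 for *Hp* and -0.20 to 0.29 for *Ctss*. Without both replicate 1 libraries *Ccl6* was at -0.10, *C3* at 0.24, *Hp* at 0.26 and *Ctss* at -0.36. *Ctss* was at -0.04 with limma-voom (-0.0414) and -0.03 with the replicate block (-0.0288), and *C3* was at 0.0136 with log2(FPKM + 1), filtered or not, and at 0.0140 with log2(FPKM + 0.1). The cause was not tested.

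Same-numbered KO and WT libraries deviated together for replicates 1 and 2 (r = 0.35 across genes for each) and not for replicate 3 (r = -0.10). Whether the numbers pair the samples is not settled by these values. With the replicate block edgeR called 0 genes, and the log2 fold changes were -3.08 for *Cd163* and -0.90 for *Stab1*. The SE of *Stab1* was 0.11 with the block and 0.55 without it, and that of *Cd163* was 0.68 and 0.61.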
